A study of Mus musculus with 6 samples.

Results

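Plcl1, Pard3b and Calcb are 3 mouse genes that each lie at a stretch of neighbouring accessible regions. These stretches were far more accessible in fibroblasts with an active ribozyme than in fibroblasts with an inactive one. The genes were picked from measured values of this same comparison, so the differences between the lines are described here and carry no test. Around each gene, all regions of the deposited table within 500 kb of the gene's span were taken, which gave 28 regions at Plcl1, 30 at Pard3b and 19 at Calcb. Together these 77 regions are 0.145% of the 52957 regions in the table. A region is called high where all 3 active libraries lay above all 3 inactive libraries and the mean of log2(value + 1) differed by at least 1, which is a 2-fold difference on that scale. Of the 77 regions, 35 were high by this rule, 4 were low by its mirror image and 38 were neither, against 13.6% of all 52957 regions that were high and 7.28% that were low. Since this contrast chose the genes, nothing is read from these shares.

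Both lines derive from NIH3T3, an established line of mouse fibroblasts. In the 3 active libraries the cells carried the active T3H48-HHR ribozyme, a hammerhead RNA that cuts itself, within Actg1 (cytoplasmic gamma-actin), in its intron 3, and in the 3 inactive libraries an inactive form of it stood at the same place. The active form was meant to cut the transcript before splicing, and whether each stable line is 1 clone is not stated. All libraries thus share a ribozyme insert, none is from unedited cells, and ribozyme activity and the history of the 2 lines cannot be told apart. The assay was ATAC-seq, where Tn5 transposase cuts open DNA and tags it with adapters, and values are reads per region that the authors scaled per library and rounded (normalised reads). The column sums lay between 6433944 and 6548535 normalised reads. By an estimate from the whole numbers in each column, 1 read stood for 0.9475 to 1.767 normalised reads in the active libraries and 0.718 to 0.8905 in the inactive libraries. By this estimate each inactive library held more reads in regions than any active library. Of 8 fibroblast genes looked up as a check of the cell label, all had accessible regions in the table. For 6 of them a region lay within 1 kb of the start site. Of genes of other cell types, 1 of 4 epithelial (Krt8), 2 of 2 blood cell (Cd68 and Ptprc) and 0 of 2 endothelial genes had accessible regions. The Ptprc region lay 4606 bp from its start site. In bulk cells, a region open in more cells and a region more open in each cell cannot be told apart.

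Open chromatin marks promoters, where transcription starts, and distal elements such as enhancers, which can lie far from the gene they act on or inside its introns. Neighbouring elements of a silent gene are often closed together, and elements of an active gene open together. Plcl1 encodes a phospholipase C-like protein without catalytic activity that binds inositol trisphosphate and protein phosphatases. Pard3b encodes a relative of the scaffold Pard3, which organises cell polarity and cell junctions. Calcb encodes the beta form of calcitonin gene-related peptide, a neuropeptide that widens blood vessels.

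The promoter sequences of Plcl1 and Pard3b are shown because a high region covered the start site of each gene. They are the 250 bases before the RefSeq start site, taken from RefSeq on build GRCm38.p6, whereas region positions in the text are on mm39, the authors' build, as deposited. The Plcl1 sequence lies at chr1:55405696-55405945 and that of Pard3b at chr1:61638574-61638823 in that build, both on the plus strand. Capitals mark the motifs CCAAT and GGGCGG on either strand.
Plcl1: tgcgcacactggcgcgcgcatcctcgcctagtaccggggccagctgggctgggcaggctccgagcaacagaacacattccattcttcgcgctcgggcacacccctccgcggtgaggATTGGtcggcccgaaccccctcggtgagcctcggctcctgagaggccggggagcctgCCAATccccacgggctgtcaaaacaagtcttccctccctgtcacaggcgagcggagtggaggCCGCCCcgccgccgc
Pard3b: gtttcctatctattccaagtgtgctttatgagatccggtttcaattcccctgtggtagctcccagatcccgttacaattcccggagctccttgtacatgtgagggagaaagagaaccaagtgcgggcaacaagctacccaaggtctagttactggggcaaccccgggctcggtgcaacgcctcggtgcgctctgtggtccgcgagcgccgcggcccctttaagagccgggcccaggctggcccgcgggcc
The Plcl1 sequence held 24 CpG pairs and was 69.2% G or C, and the Pard3b sequence held 17 CpG pairs and was 60% G or C. The median over 32841 RefSeq promoters of the same length was 6 CpG pairs and 52.4%. CCAAT, the core of the NF-Y site, occurred 2 times before Plcl1, at 134 to 130 bases (minus strand) and 77 to 73 bases (plus strand) before the start, and GGGCGG, the core of SP and KLF sites, 1 time on the minus strand at 15 to 10 bases. CCAAT was in 33.9% of all promoters and GGGCGG in 32.7%. Neither was in the Pard3b sequence. TGANTCA, the site of AP-1, was in neither sequence and in 6.75% of all promoters on either strand. The cyclic AMP response element, spelled TGACGTCA, was in neither and in 1.55%. TATAAA was in neither and in 12.4%. Of the 3 genes, 2 were matched in the promoter table.

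**Figure D1:**
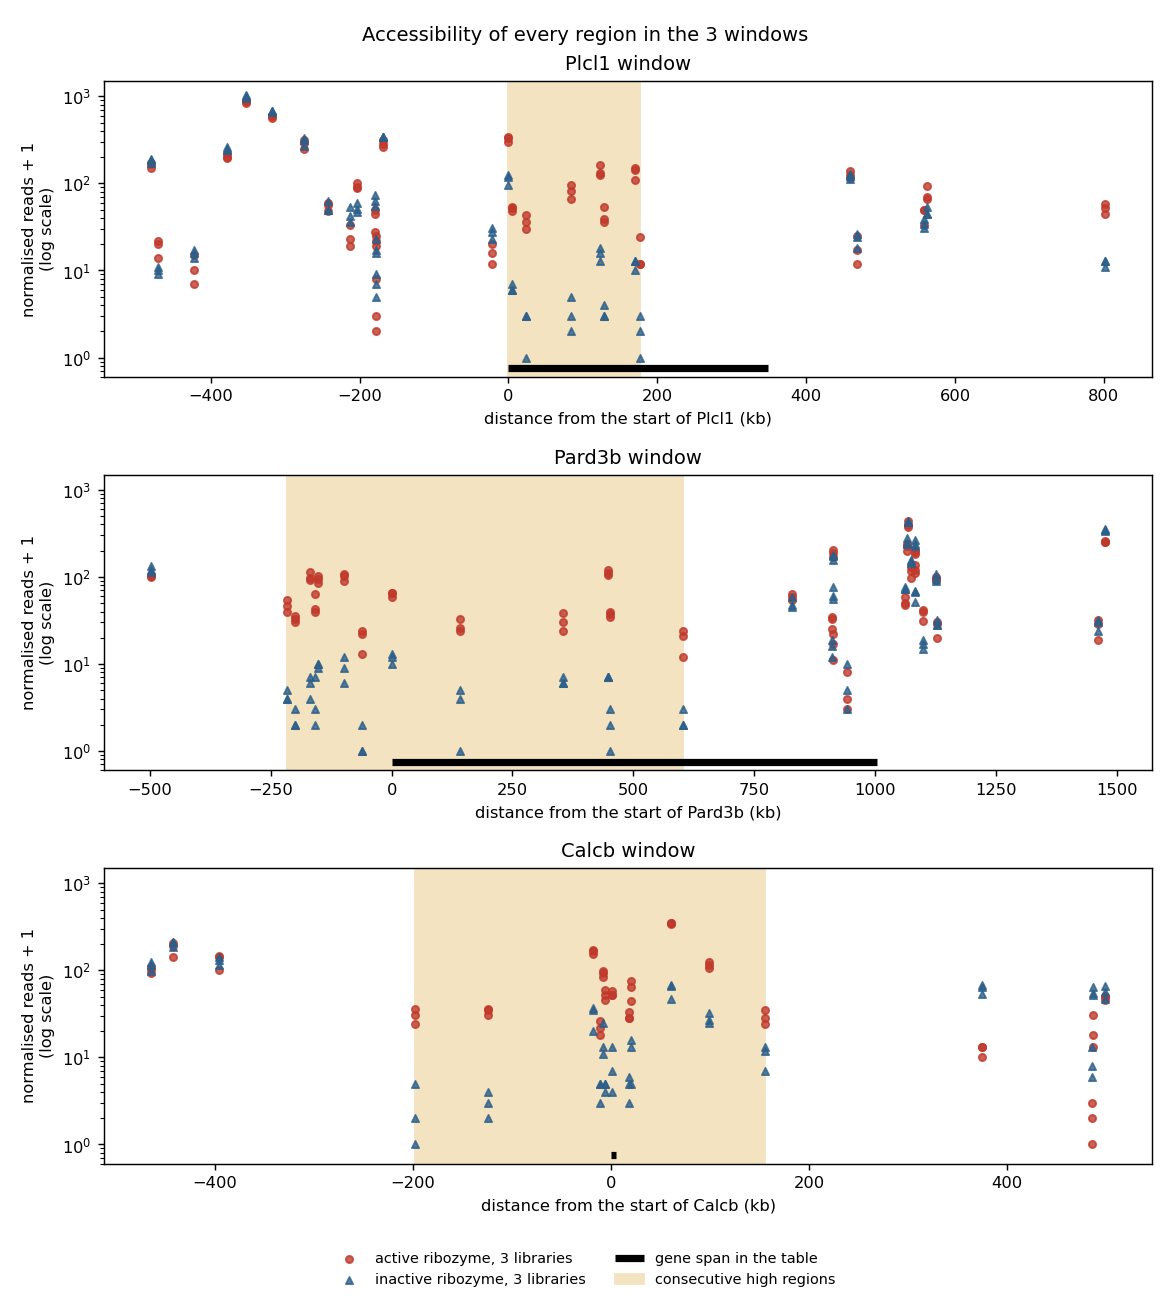
Normalised reads plus 1 (log scale) of every region in each library, by distance in kb from the gene's start, with active libraries as circles and inactive libraries as triangles. Shading marks the uninterrupted stretches of 8, 13 and 12 high regions at Plcl1, Pard3b and Calcb, where all active points of a region lie above its inactive points, and the black bar is the gene's span.

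At Plcl1 on chromosome 1 (gene span 55445080 to 55793444, plus strand) 8 consecutive regions were high, from the promoter at 55444773 to a region that ends at 55621678. This stretch of 176.9 kb began 0.307 kb before the gene's start and ended 172 kb before the gene's end, so that all 8 regions overlapped the gene's span. The promoter region, 69 bp from the start site, had 301, 339 and 328 normalised reads in the active libraries, against 124, 96 and 119 in the inactive libraries. It was the strongest of the 8 in both lines, and its ratio of group means was 2.86. The region 4945 bp from the start site stood at 51, 53 and 47 in the active libraries, against 5, 6 and 5 in the inactive libraries, a ratio of 9.44. Both groups kept a narrow range there.

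Deeper in the gene the inactive values came close to 0 in some regions and were 9 to 17 in others. At 55468258 to 55468512, 23.3 kb from the start, the active libraries had 29, 42 and 35 normalised reads and the inactive libraries 2, 2 and 0. At 55528577 to 55528897, values were 81, 94 and 65 in the active libraries and 1, 2 and 4 in the inactive libraries. Its log2 difference was 4.69, or 3.09 with pseudocount 8, and its ratio of means 34.3. The region at 55567871 to 55568456 had 130, 125 and 163 in the active libraries, against 15, 12 and 17 in the inactive libraries. Its neighbour at 55572987 to 55573264 was weaker in both lines, with 38, 35 and 52 in the active libraries and 2, 3 and 2 in the inactive libraries. At 55615109 to 55615607 the active libraries had 108, 148 and 143 and the inactive libraries 12, 12 and 9. The last region of the stretch, at 55621429 to 55621678, had 11, 23 and 11 in the active libraries and 1, 2 and 0 in the inactive libraries. With so few inactive reads it is given no ratio.

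On both sides of the Plcl1 stretch, the nearest regions were not high. The region before it, at 55422420, 22.2 kb away, had 19, 11 and 15 normalised reads in the active libraries and 22, 30 and 27 in the inactive libraries. It thus lay lower in every active library, though by less than 2-fold on the log2 scale (-0.79). After the stretch the next region analysed followed 283 kb on, past the end of the gene, so that the right border is not resolved within this gap. It stood at 55904355 to 55904996 and had 114, 124 and 138 in the active libraries and 129, 121 and 110 in the inactive libraries, where the groups overlapped. Among the other 20 regions of the window 1 was high, at 56246162 to 56246513, with 51, 57 and 44 in the active libraries and 10, 12 and 12 in the inactive libraries. That region lay 801.3 kb from the start of Plcl1, with 4 regions that were not high in between.

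Neighbouring promoters on the left side of Plcl1 were not high. They belong to Ankrd44, a regulatory subunit of protein phosphatase 6, Sf3b1, a splicing factor, Coq10b, a coenzyme Q-binding protein, the mitochondrial chaperonin gene Hspe1, Mob4, Rftn2 and the mitochondrial methionine-tRNA ligase gene Mars2. The promoter of Coq10b, the most accessible of the window, had 876, 878 and 838 normalised reads in the active libraries and 1029, 968 and 1012 in the inactive libraries. That of Hspe1 had 605, 560 and 591 in the active libraries, against 685, 656 and 685 in the inactive libraries. The nearest promoter to the left in the table, that of Mars2, had 286, 315 and 261 in the active libraries and 340, 338 and 343 in the inactive libraries. All 3 were lower in every active library than in any inactive one, by 0.21 to 0.25 on the log2 scale. The Rftn2 promoter, 138 bp from its start site, was weak, at 44, 48 and 27 in the active libraries and 54, 62 and 72 in the inactive libraries. By RefSeq gene order on GRCm38.p6, Boll lies between Mars2 and Plcl1, and none of the regions analysed was annotated to it.

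At Pard3b, also on chromosome 1 (gene span 61677983 to 62681443, plus strand), 13 consecutive regions were high over 818.9 kb, from 61462475 to 62281361. The stretch began 216 kb before the gene's start and ended 603 kb into the gene. Of its regions 7 lay before the gene and 6 overlapped its span. Inactive values were low throughout: the highest inactive value in the stretch was 12, and 12 of the 13 regions had an inactive mean under 10 normalised reads.

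Before the gene, 7 regions were high. The first, at 61462475 to 61462682, had 38, 53 and 45 normalised reads in the active libraries and 3, 3 and 4 in the inactive libraries. The region at 61478810 to 61479258, 226 bp from the start of a long noncoding RNA gene (ENSMUSG00000086408), had 35, 32 and 29 in the active libraries and 1, 1 and 2 in the inactive libraries. The region at 61509823 to 61510270, 447 bp from the start of an snRNA gene (ENSMUSG00002075578), had 113, 92 and 96 in the active libraries, against 3, 5 and 6 in the inactive libraries. The table pairs neither identifier with a symbol. Between this region and the gene stood 4 more high regions without an annotated gene. At 61519595 to 61519975 the active libraries had 63, 42 and 39 and the inactive libraries 6, 1 and 2. At 61524649 to 61524917 they had 93, 101 and 83 in the active libraries and 9, 9 and 8 in the inactive libraries. The region at 61579192 to 61579579 had 107, 102 and 89 in the active libraries and 8, 11 and 5 in the inactive libraries. Both of these regions were among the stronger ones of the stretch in the active libraries. A narrow region of 168 bp at 61616003 was weakest, with 23, 12 and 21 in the active libraries and 0, 1 and 0 in the inactive libraries. Active and inactive libraries were apart in all 7, as the rule requires.

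The Pard3b promoter (61677828 to 61678478, 170 bp from the start site) was not the strongest region of its stretch. It had 57, 65 and 64 normalised reads in the active libraries and 9, 11 and 12 in the inactive libraries, a ratio of 5.81, and had the highest inactive mean of the 13. Within the gene, the region 141.2 kb from the start had 32, 23 and 25 in the active libraries and 4, 3 and 0 in the inactive libraries. That at 353.7 kb had 29, 37 and 23 in the active libraries and 6, 5 and 5 in the inactive libraries (log2 difference 2.25). Active and inactive libraries were apart at both. The strongest active region stood at 62125079 to 62125540, 447.3 kb into the gene, with 110, 104 and 118 in the active libraries and 6, 6 and 6 in the inactive libraries. The region 452.7 kb in, at 62130528, had 38, 34 and 36 in the active libraries, against 1, 0 and 2 in the inactive libraries. The last, at 62281192 to 62281361, had 11, 23 and 20 in the active libraries and 1, 2 and 1 in the inactive libraries.

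The right border fell inside Pard3b itself. A run that may hold 1 region in a row that is not high also ended at 62281361. The end of that run, not of the uninterrupted stretch, moved to 62588379 on leaving out inactive replicate 2 or 3, or active replicate 1. After a gap of 224 kb, the region at 62505552 to 62506061, still within the gene, had 57, 53 and 63 normalised reads in the active libraries and 57, 46 and 44 in the inactive libraries. Nearby, 2 regions of the gene went opposite ways. The region at 62588178 had 24, 32 and 34 in the active libraries and 11, 15 and 18 in the inactive libraries, and stayed just under the threshold (0.99). The region at 62589700 to 62590259 was low, at 21, 16 and 10 in the active libraries and 75, 59 and 54 in the inactive libraries. A strong region less than 1 kb on, at 62590512 to 62591152, had 188, 201 and 169 in the active libraries and 177, 157 and 172 in the inactive libraries. A further region of the gene, at 62619742 to 62619909, was weak in both lines. It had 7, 2 and 3 in the active libraries and 9, 2 and 4 in the inactive libraries. The other regions in the last part of Pard3b were present in both lines. Those in its first 603 kb had at most 12 normalised reads in any inactive library. This contrast follows in part from the rule that sets the border.

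On the left, the next region before the stretch lay 281 kb away, at 61180775 to 61181495. It had 102, 99 and 103 normalised reads in the active libraries and 133, 113 and 118 in the inactive libraries. Just past the window a further high region stood at 61134747 to 61135102, with 44, 51 and 38 in the active libraries and 14, 13 and 17 in the inactive libraries. Where 1 region that is not high may stand inside a run, the Pard3b run therefore reached back to 61134747 and held 15 regions over 1147 kb, of which 14 were high. The summed signal of that longer run was 864.7 ± 33.3 in the active libraries and 192 ± 10.6 in the inactive libraries (mean ± SD of 3 libraries), a ratio of 4.5. For the 13 uninterrupted regions the ratio was higher, as given with the sums.

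Right of Pard3b lie Nrp2, a receptor for semaphorins and vascular growth factors, and Ino80d, a subunit of a chromatin remodelling complex. The Nrp2 promoter had 198, 235 and 225 normalised reads in the active libraries and 278, 244 and 240 in the inactive libraries. That of Ino80d had 248, 253 and 260 in the active libraries and 332, 346 and 352 in the inactive libraries. Both lay lower in every active library, by 0.21 and 0.44 on the log2 scale. A region 2290 bp from the start of a long noncoding RNA gene (ENSMUSG00000100811) had 135, 118 and 110 in the active libraries and 51, 67 and 66 in the inactive libraries, just under the threshold (0.97). At 62775599 the region had 41, 39 and 30 in the active libraries and 18, 16 and 14 in the inactive libraries. With a log2 difference of 1.14 it was the high region nearest to the threshold.

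**Figure D2:**
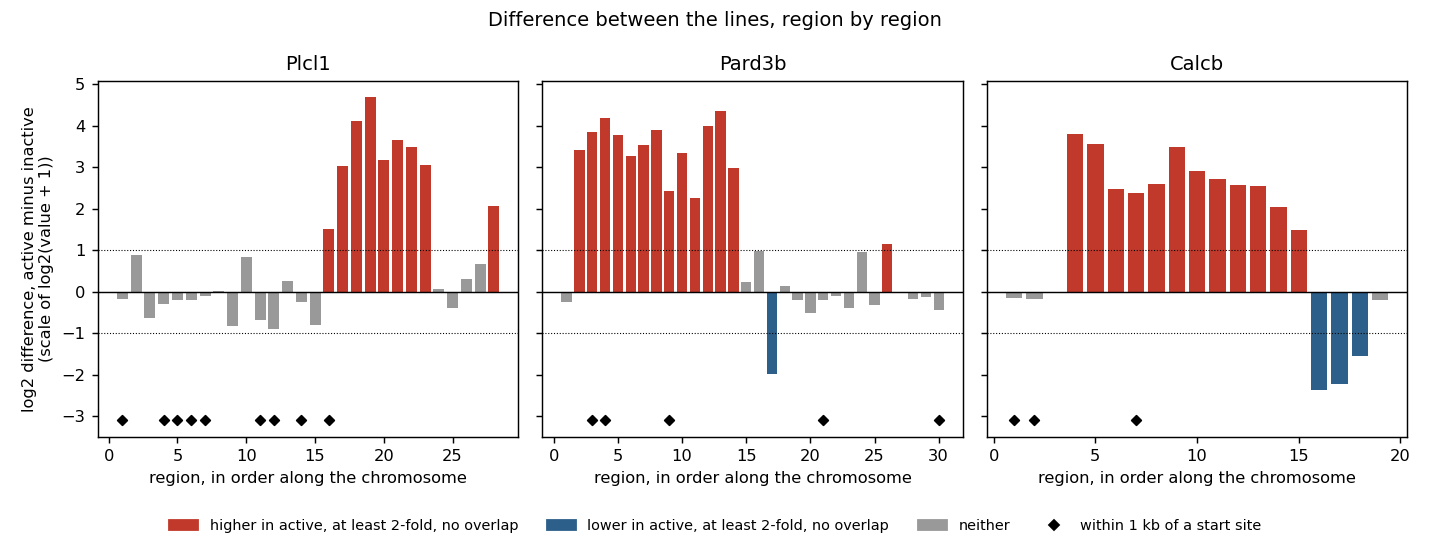
Log2 difference, active minus inactive, on the log2(value + 1) scale (vertical axis) for each region in chromosome order (horizontal axis), with diamonds under regions within 1 kb of a start site and dotted lines at 1 and -1. The high regions stand side by side with medians of 3.32 at Plcl1, 3.53 at Pard3b and 2.58 at Calcb, and at Calcb the high stretch is followed by 3 low regions.

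At Calcb on chromosome 7 (gene span 114317878 to 114322600, plus strand) 12 consecutive regions were high, from 114119471 to 114472975, over 353.5 kb. The gene itself is 4.722 kb long, and 1 of the 12 regions overlapped it, with 6 before and 5 after. The Calcb region at 114318769 to 114319298, 1156 bp from the start site and inside the gene, had 57, 51 and 51 normalised reads in the active libraries and 6, 3 and 12 in the inactive libraries, a ratio of 7.57. Distances to start sites are counted in this report from a region's centre. No region analysed here had its centre within 1 kb of the Calcb start site, so that the level of its promoter is not known.

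Left of the gene, 6 regions were high. The first region, at 114119471 to 114119717, had 35, 23 and 30 normalised reads in the active libraries and 1, 4 and 0 in the inactive libraries, and that at 114193595 to 114193985 had 34, 30 and 35 in the active libraries and 1, 3 and 2 in the inactive libraries. Their log2 differences were 3.80 and 3.56, the largest of the 12 with pseudocount 1 but not with pseudocount 8 (1.96 and 2.04), where the region at 114377195 had the largest (2.41). Within 20 kb of the gene on this side, 4 regions followed. That at 114299624 to 114300584, 1225 bp from the start of a processed pseudogene (ENSMUSG00000108349), had 171, 155 and 168 in the active libraries and 19, 36 and 34 in the inactive libraries. The region at 114306144, 774 bp from the start of a transcribed processed pseudogene (ENSMUSG00000086583), had 25, 21 and 17 in the active libraries and 4, 2 and 4 in the inactive libraries. Pseudogenes are copies of other genes, and reads there can depend on how such copies were handled in alignment. At 114309581 to 114310159 the active libraries had 84, 92 and 97 and the inactive libraries 24, 10 and 12. At 114311862 to 114312126 they had 45, 58 and 51 in the active libraries and 4, 3 and 4 in the inactive libraries.

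Right of the gene stood the strongest region of the stretch. At 114377195 to 114378837, 60.14 kb from the start of Calcb and 1642 bp wide, the active libraries had 350, 337 and 351 normalised reads and the inactive libraries 67, 46 and 65. This region held 33.9% of the summed signal of the stretch in the active libraries and 34.4% in the inactive ones. Closer to the gene, the region at 114335839 had 32, 27 and 27 in the active libraries and 4, 5 and 2 in the inactive libraries, and that at 114337457 had 75, 44 and 63 in the active libraries and 4, 12 and 15 in the inactive libraries. Farther right stood the last 2 regions. At 114416557 to 114417066 the active libraries had 105, 125 and 115 and the inactive libraries 24, 31 and 26. The last region, at 114472698, had 27, 34 and 23 in the active libraries and 6, 11 and 12 in the inactive libraries, a log2 difference of 1.48, the smallest of the 12.

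Beyond the right border the difference turned round. After a gap of 219 kb, 3 regions in a row were low. The region at 114691796 to 114692752 had 12, 12 and 9 normalised reads in the active libraries and 64, 66 and 53 in the inactive libraries, 5.55-fold higher in the inactive line. At 114803645 the active libraries had 1, 0 and 2 and the inactive libraries 12, 5 and 7. The inactive values there were small as well. At 114804091 to 114804641 the libraries had 17, 30 and 12 in the active libraries and 54, 51 and 63 in the inactive libraries. The last region of the window, at 114816108, overlapped between groups, at 50, 48 and 45 in the active libraries and 65, 56 and 46 in the inactive libraries. High and low regions thus stood in 2 separate groups on the right of Calcb.

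The left border of the Calcb stretch lay 197 kb after the region at 113921862 to 113922673. That region had 99, 141 and 146 normalised reads in the active libraries and 130, 114 and 141 in the inactive libraries. Farther left, the promoter of Psma1, a subunit of the proteasome, had 204, 141 and 189 in the active libraries and 208, 209 and 183 in the inactive libraries. That of Copb1, a coat protein of transport vesicles, had 103, 92 and 107 in the active libraries, against 113, 98 and 124 in the inactive libraries. The groups overlapped at all 3 regions. By RefSeq gene order on GRCm38.p6, Pde3b, a cyclic nucleotide phosphodiesterase, Cyp2r1, a vitamin D hydroxylase, and Calca, the paralogue of Calcb, lie between Psma1 and Calcb, and Insc, an adaptor of spindle orientation, follows Calcb. None of the regions analysed was annotated to these 4 genes.

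**Figure D3:**
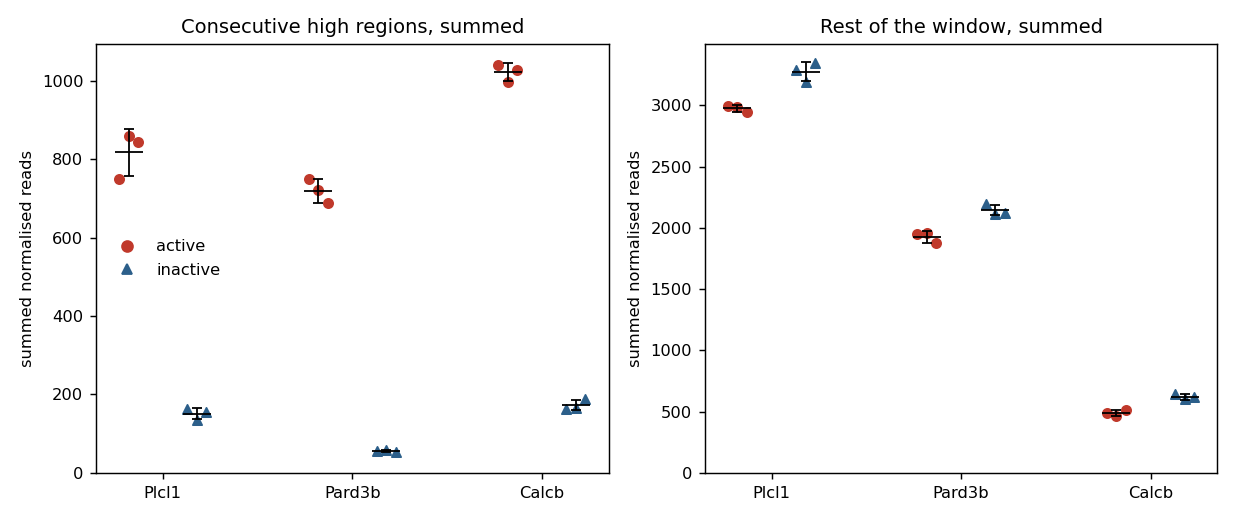
Summed normalised reads of the uninterrupted high stretch (left panel) and of the other regions of the window (right panel) per library, active left of inactive for each gene, with mean and SD bars (n = 3 libraries). Active sums of the stretches lie between 688 and 1040 and inactive sums between 53 and 188, and in the rest of each window, which leaves out these regions by construction, the active sums lie below the inactive ones.

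Summed over the uninterrupted stretch, Plcl1 had 749, 859 and 844 normalised reads in the active libraries and 162, 135 and 156 in the inactive libraries, or 817.3 ± 59.7 and 151 ± 14.2 (mean ± SD of 3 libraries), a ratio of 5.41. Pard3b had 749, 720 and 688 in the active libraries and 57, 58 and 53 in the inactive libraries, or 719 ± 30.5 and 56 ± 2.65, a ratio of 12.8. Calcb had 1040, 997 and 1028 in the active libraries and 164, 166 and 188 in the inactive libraries, or 1022 ± 22.2 and 172.7 ± 13.3, a ratio of 5.92. The distance between groups is set in part by the rule, since a stretch holds high regions alone. Among libraries of a group the sums had a coefficient of variation of 2.17% to 7.3% in the active line and 4.72% to 9.39% in the inactive line. At Plcl1 the promoter gave 39.5% of the Plcl1 sum in the active libraries and 74.8% in the inactive ones. The rest of each window leaves out the consecutive high regions by construction, and its sums were lower in the active libraries. They were 2974 ± 26.3 in the active libraries and 3274 ± 80.7 in the inactive libraries at Plcl1 (20 regions), 1928 ± 48.3 and 2143 ± 41.2 at Pard3b (17 regions), and 486.7 ± 23 and 620.7 ± 23.7 at Calcb (7 regions).

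Of the 33 regions in the 3 stretches, 24 had an inactive mean under 10 normalised reads, a level that 7.59% of all regions in the table were under. The loci were chosen for this contrast, so that this is no separate finding. The 33 regions had a median width of 320 bp, against 447 bp over the table and 554 bp for the other 44 regions of the windows. Of the 33 regions, 22 carried no annotated gene, a share near that of the whole table, where 36.3% of regions carried one. The spacing of regions was not shared. Regions stood 4.52 per 100 kb at Plcl1 and 3.39 at Calcb, above the 2.03 over chromosome 1 and the 1.96 over chromosome 7, and 1.31 per 100 kb over the longer run at Pard3b, below that of its chromosome. Across the regions of a stretch, Pearson's r of log2(value + 1) between active libraries was 0.95 to 0.98 over 8 regions at Plcl1, 0.88 to 0.94 over 13 at Pard3b and 0.96 to 0.99 over 12 at Calcb. Between inactive libraries it was 0.93 to 0.99 at Plcl1, 0.69 to 0.78 at Pard3b and 0.82 to 0.88 at Calcb. The log2 differences of these regions depend on the pseudocount, since many inactive values are near 0. Their medians with pseudocount 8 were 2.23 at Plcl1, 2.23 at Pard3b and 2.00 at Calcb, against 3.32, 3.53 and 2.58 with pseudocount 1.

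**Figure D4:**
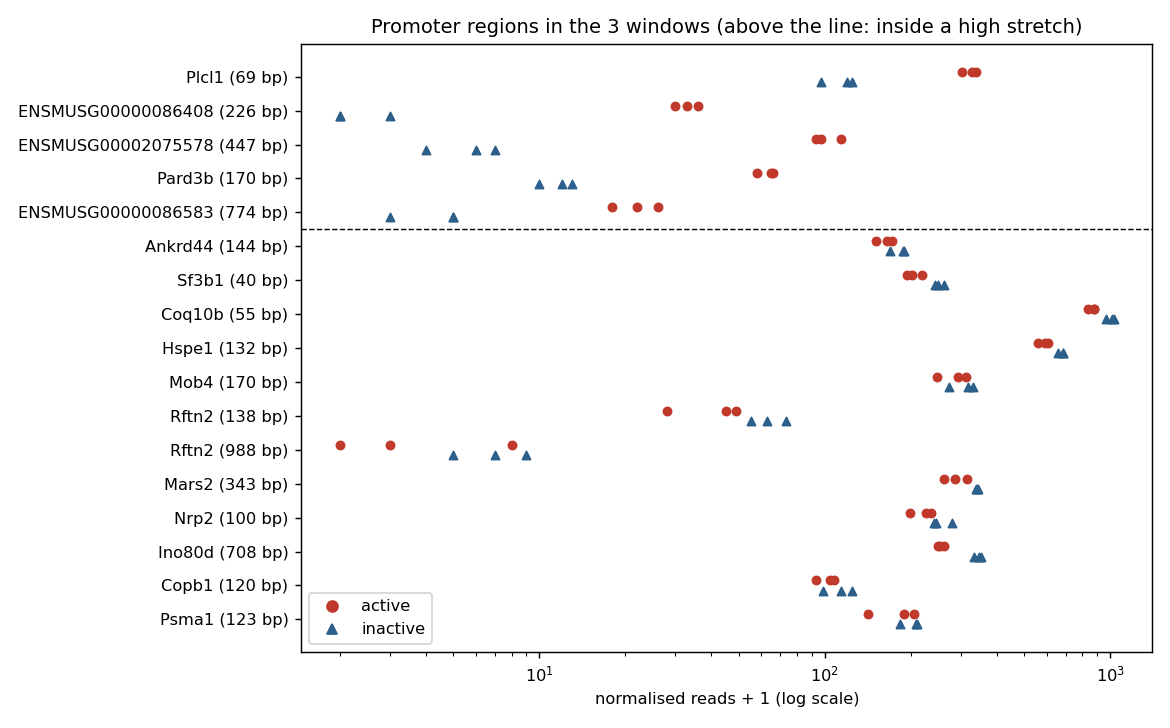
Normalised reads plus 1 (log scale) of the 17 regions within 1 kb of a start site in the 3 windows, active libraries as circles above inactive libraries as triangles, with the distance to the start site in brackets. The 5 regions above the dashed line lie inside a high stretch, whose regions have active values on the right by definition, and the 12 below it overlap or have active values on the left.

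Of the 17 regions within 1 kb of a start site in the windows, 5 lay inside a stretch, at Plcl1, at Pard3b, at a long noncoding RNA gene, at an snRNA gene and at a transcribed pseudogene, with log2 differences of 1.51 to 4.19. That these 5 are high follows from how a stretch is defined. The other 12 lay outside, and none was high. Their log2 differences ran from -0.90 to -0.11, and in 7 of them all active libraries lay below all inactive ones. The share of all promoters in that state is not given here, so nothing is read from this count. Over the whole table, 4.24% of 11239 promoter regions and 16.1% of the other regions were high. In the promoters of Plcl1 and Pard3b the inactive line had 113 ± 14.9 and 10.7 ± 1.53 normalised reads there (mean ± SD of 3 libraries).

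**Figure D5:**
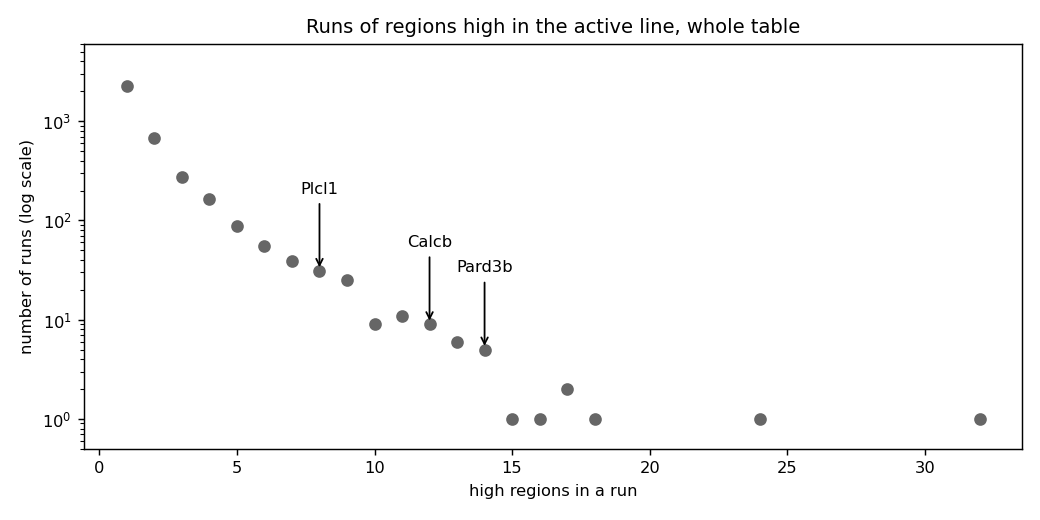
Number of runs of high regions over the whole table (vertical axis, log scale) by the number of high regions in the run (horizontal axis), with up to 1 region in a row that is not high allowed inside a run. Arrows mark the runs at Plcl1 (8 high regions), Calcb (12) and Pard3b (14), and the longest run held 32.

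Runs of this size were uncommon in the table but not particular to these genes. Over all chromosomes there were 3657 runs of high regions, of which 2257 held 1 region and 103 held 8 or more. The Pard3b run was exceeded in number of high regions by 7 runs, the Calcb run by 18 and the Plcl1 run by 72. By the ratio of summed signal, Calcb was number 15, Plcl1 number 19 and Pard3b, with its longer run, number 34 of the 103 runs, whose ratios ran from 1.62 to 20.4 with a median of 3.5. On chromosomes 1 and 7 the run next in size stood on chromosome 7 at 60742748 to 61527797 (13 high of 14 regions) near A230006K03Rik. It summed to 842 ± 27 in the active libraries and 238.7 ± 5.86 in the inactive libraries. The run at 166640650 to 166796173 on chromosome 1, with no gene symbol, held 11 high regions in a row and had a ratio of 12.4, near the 12.8 of the uninterrupted Pard3b stretch, with 548.7 ± 20.1 in the active libraries and 44.33 ± 3.51 in the inactive libraries. A run of 10 high regions near Gm47985 on chromosome 1 had a ratio of 2.91, and runs of 9 on the same chromosome at 14851525 and 79154639 had 4.53 and 2.77.

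The regions around the runs were described in the same way. Within 5 Mb of each gene, its own run left out, the median log2 difference was -0.09 at Plcl1 (219 regions), -0.11 at Pard3b (227 regions) and -0.11 at Calcb (264 regions), against -0.03 over the table. High regions were 10.5%, 10.1% and 7.95% of these surroundings, against 15.8% over chromosome 1 and 8.37% over chromosome 7. Between the Plcl1 and Pard3b runs, which lie 5513 kb apart, 14 of 122 regions were high, 8 were low and 100 were neither. Nothing about this interval is read from these counts, since most regions of the table were not high either (13.6% were high).

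Relatives of the 3 genes elsewhere in the genome were tested over the whole table with limma, and each list held both higher and lower regions. Each fold change was taken from log2(value + 1), which understates the change of weak regions. Over 51253 regions tested, 30.9% were higher and 29.2% lower at an adjusted p under 0.05, and the counts below are to be read against these shares. Of the calcitonin family and its receptors, 4 of 10 genes had a region, and of 5 tested regions 1 was higher and 4 were lower, with a median log2 difference of -0.68. Of the phospholipase C family, 9 of 14 genes had a region, and of 12 regions 2 were higher, 6 lower and 4 did not pass (median -0.19). Of the polarity complexes, 16 of 20 genes had a region (Mpp5, also listed, is another symbol of Pals1), and of 19 regions 4 were higher, 6 lower and 9 did not pass (median -0.06).

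In the calcitonin family, 3 of the 4 lower regions lay at Adm, the gene of the vasodilator peptide adrenomedullin, on chromosome 7. Its promoter (110226779 to 110226991, 17 bp from the start site) had 0, 0 and 5 normalised reads in the active libraries and 46, 32 and 52 in the inactive libraries (limma, adjusted p = 1.4e-09, log2 fold change -4.58 ± 0.51 SE). A region 2649 bp from the start fell to 11.3 ± 4.51 in the active libraries, against 26 ± 3.46 in the inactive libraries (adjusted p = 7.23e-04 by limma). Adm and Calcb, on the same chromosome, thus differed in opposite directions. Calcb was picked from this comparison and the level of its promoter is not known, so nothing is read from this. Calcrl, the receptor that calcitonin gene-related peptide and adrenomedullin share, was lower at its promoter, with 12, 16 and 21 in the active libraries and 24, 25 and 30 in the inactive libraries (adjusted p = 0.0235 by limma). In limma fits that left out 1 library this call was lost without active replicate 1 (adjusted p = 0.109), without inactive replicate 2 (adjusted p = 0.0513) and without inactive replicate 3 (adjusted p = 0.11). Crcp, whose product takes part in signalling of that receptor, was higher at its promoter, at 148 ± 8.02 in the active libraries and 95 ± 9.54 in the inactive libraries (adjusted p = 5.83e-06 by limma). Ramp1, which makes Calcrl a receptor for the peptide, had a mean under 10 and was not tested.

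Among phospholipases C, Plcl2, the closest relative of Plcl1, had 1 region, 4891 bp from its start site, with 85, 83 and 95 normalised reads in the active libraries and 62, 79 and 64 in the inactive libraries (limma, adjusted p = 0.0225, log2 fold change 0.36). This call was lost with quantile normalization (adjusted p = 0.0868 by limma) and in fits without active replicate 3 (0.094), without inactive replicate 1 (0.107) and without inactive replicate 3 (0.0823). Plcg1, which growth factor receptors activate, had the most accessible promoter of the list and was higher, at 559 ± 64.2 in the active libraries and 475 ± 28.4 in the inactive libraries (adjusted p = 0.00315 by limma). In limma without trend and robust options this call was lost (adjusted p = 0.136). Plcd1, a calcium-dependent member, fell at its promoter to 116 ± 11.5 in the active libraries, against 257 ± 24.9 in the inactive libraries (limma, adjusted p = 3.85e-13, log2 fold change -1.14 ± 0.10 SE). A second Plcd1 region and a Plce1 region 1853 bp from its start site were also lower (-0.74 and -1.03).

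Among polarity genes, Crb1, a transmembrane organiser of the apical membrane, stood out. Its region 2453 bp from the start site had 69, 78 and 71 normalised reads in the active libraries and 15, 18 and 15 in the inactive libraries (limma, adjusted p = 3.81e-12, log2 fold change 2.12 ± 0.20 SE). Pals1, the Crumbs-binding scaffold, was higher at its promoter, at 545 ± 44.1 in the active libraries and 422 ± 5.29 in the inactive libraries, and Dlg5 was higher by 0.25 on the log2 scale. Pard3, the relative of Pard3b, was lower at its promoter, with 233, 290 and 277 in the active libraries and 350, 351 and 390 in the inactive libraries (limma, adjusted p = 3.98e-06, log2 fold change -0.45). A Dlg4 region 3355 bp from its start site was lower as well (-0.83), and a stronger Dlg4 region at 4288 bp was lower by less (-0.21). Prkci, the atypical protein kinase C of the Par complex, was lower in a region 4141 bp from its start site (-0.54). The Prkci promoter did not pass (-0.09, adjusted p = 0.292 by limma). In limma without trend and robust options Dlg5 (adjusted p = 0.0567) and the Prkci region at 4141 bp (adjusted p = 0.0644) lost their calls. The Dlg1 promoter, the most accessible of the list, had 501 ± 30.1 in the active libraries, against 522 ± 10.7 in the inactive libraries, and passed no threshold (adjusted p = 0.371 by limma).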

How the data were processed

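The submitters' processing notes name build mm39 and, among other tools, STAR 2.7.11a, Trimmomatic 0.39, DESeq2 1.36.0, featureCounts and Picard 3.1.1. How regions were called and merged is not given in the sources used here. The deposited unit is a score, namely scaled and rounded reads per region, as the authors left them. This was read from near-equal column sums and from 26 and 10 whole numbers below 60 that never occurred in active replicates 2 and 1. The scaling per library (0.718 to 1.767 normalised reads per read) was estimated from skipped and overfilled whole numbers. Since whole reads were not recovered, no count test was run. Regions are given as in the table, with no filter for the 77 regions described, of which 71 had a mean of at least 10 over all libraries.

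The genes were chosen from this comparison, and all members and gene lists were chosen with earlier results of these data known. High regions follow the rule in the first paragraph of the report. A run begins and ends with a high region and holds at most 1 region in a row that is not high. Tests of gene families used limma 3.58.1 in R 4.3.3 (trend and robust) on log2(value + 1), no covariate, over 51253 regions with a mean of at least 10, with Benjamini-Hochberg adjustment at 0.05. Named family genes were up to 3 regions per direction and list with the largest change past the threshold and the most accessible promoter of each list. Nothing in the labels tells if a group's 3 libraries are separate cultures, so the spread behind the p-values may be technical only. The fit was also run on simulated data in which far fewer regions changed than were called here. That run thus does not check the family calls. Python 3.11.15, numpy 2.4.6, pandas 2.3.3 and matplotlib 3.10.9 were used.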

Additional observations from a re-analysis of the deposited data

How the results depend on the processing

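Counts of high regions per window stayed within 1.5 times the reported count under the other thresholds (1.5-fold and 3-fold), without the condition on overlap, with pseudocount 8, a minimum mean of 10, quantile normalization, centring on the chromosome or, an alternative chosen after seeing the data, on the surroundings, and without any 1 library (9 to 10 at Plcl1, 14 to 16 at Pard3b, 12 at Calcb). Run lengths were not computed with centring on the surroundings. Under the other settings the run at Plcl1 held 7 or 8 regions, that at Calcb 11 or 12 and that at Pard3b 13 to 17. With a 3-fold threshold the Plcl1 run began at 55449930, without the promoter, and the Calcb run ended at 114417066. With a 1.5-fold threshold, and where either inactive replicate 2, inactive replicate 3 or active replicate 1 was left out, the Pard3b run ended at 62588379 and spanned 1454 kb, against 1147 kb. The log2 ratio of the summed run was 2.44 at Plcl1, 2.17 at Pard3b and 2.56 at Calcb. Without promoters it went to 3.70 at Plcl1 and 1.93 at Pard3b, with quantile normalization to 2.05 at Pard3b and 2.43 at Calcb, and for the uninterrupted Pard3b stretch, chosen after seeing the data, to 3.68. Leaving out 1 library gave 2.36 to 2.50 at Plcl1, 2.14 to 2.22 at Pard3b and 2.53 to 2.63 at Calcb.

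Family counts changed in limma without trend and robust options, to 1 higher and 4 lower phospholipase C regions and 2 higher and 2 lower polarity regions. With quantile normalization, lower regions were 5 in the phospholipase C list and 5 in the polarity list. Leaving out 1 library gave 1 to 3 higher and 5 to 6 lower phospholipase C regions. It gave 3 to 4 higher and 4 to 6 lower polarity regions, and 3 to 4 lower calcitonin regions. Of the 77 window regions, the 35 high and 4 low ones kept their sign under the 9 settings run for single regions. The rule itself fixes this sign when 1 library is left out or the pseudocount is changed. Centring on the chromosome moved values by far less than the threshold of 1. Quantile normalization was thus the only one of these settings that could have changed a sign, and little is read from this result. With the replicate number as a block, all family counts were as reported, with 15749 regions higher and 14858 lower over the table, against 15827 and 14957. Same-numbered libraries did not deviate together (r of deviations 0.001, -0.006 and -0.016 for numbers 1 to 3). Depth limits the regions with inactive values of a few reads, whose ratios are imprecise.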
